A study of Mus musculus with 68 samples.

Results

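The genes described here are 8 transcription factor genes of cranial mesoderm and muscle progenitors, taken by name: Tcf21, Msc, Myf5, Myod1, Lhx2, Isl1, Meox1 and Meox2. All 8 were among the 21948 genes of the deposited table, and all 8 passed the filter on low values. RNA was sequenced from pharyngeal arches 1 (PA1) and 2 (PA2) of mouse embryos, the paired swellings beside the embryonic throat from which the jaws (PA1) and parts of the neck, ear and facial muscles (PA2) form. The embryos, all of the cross CBA/Ca/J x C57BL/10, were wildtype or carried the genotype label Hoxa2-/-, with no other allele or treatment named. They were taken at 4 stages, from embryonic day 9.0 (E9.0) to E10.5. In the order of stage, wildtype PA1 had 5, 5, 5 and 3 libraries, wildtype PA2 had 4, 4, 5 and 3, and each arch with the label Hoxa2-/- had 4, 5, 5 and 3. Each library was 1 hand-dissected arch sample of 1 embryo. There were 35 embryos for the 68 libraries, and in 33 of them both arches were sequenced, so that PA2 could be set against PA1 of its own embryo. A library held crest-derived mesenchyme, epithelium, vessels and blood beside the mesoderm core, so fewer cells of a type and less RNA per cell cannot be told apart.

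Facial and jaw muscles do not come from somites. They arise from the mesoderm at the core of each arch, which shares progenitors with the second heart field, and there the basic helix-loop-helix factors Tcf21 (capsulin) and Msc (musculin, also called MyoR) act with Tbx1 upstream of the muscle determination factors Myf5 and Myod1. Isl1 and Lhx2 are LIM homeodomain factors: Isl1 marks the second heart field and branchial muscle progenitors, and Lhx2 is part of the pharyngeal muscle network. Meox1 and Meox2 are homeobox factors best known from somites, where they act in the making of vertebrae and limb muscle.

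By the GENCODE M21 annotation of GRCm38, Tcf21 (ENSMUSG00000045680) lies at chr10:22817281-22820174 on the minus strand, and Msc (ENSMUSG00000025930) lies at chr1:14753346-14755992 on the minus strand. Myf5 (ENSMUSG00000000435) lies at chr10:107482908-107486134 on the minus strand, and Myod1 (ENSMUSG00000009471) lies at chr7:46376474-46379099 on the plus strand. Lhx2 (ENSMUSG00000000247) lies at chr2:38339281-38369733 on the plus strand, and Isl1 (ENSMUSG00000042258) lies at chr13:116298281-116309689 on the minus strand. Meox1 (ENSMUSG00000001493) lies at chr11:101877510-101894374 on the minus strand, and Meox2 (ENSMUSG00000036144) lies at chr12:37108540-37179534 on the plus strand. Tcf21 is overlapped by an antisense gene, Gm10824, that is also in the table, and whether reads were counted by strand is not given in the sources used here.

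RefSeq promoter windows (build GRCm38.p6) were given for 5 of the 8 genes, Tcf21, Myf5, Lhx2, Isl1 and Meox2. The 3 in which a searched motif was found are shown, 5′ to 3′ on the strand of the gene, up to the first annotated exon. Capitals mark matches, sought on both strands, to the E-box CANNTG, the motif bound by basic helix-loop-helix factors such as Tcf21, Msc, Myf5 and Myod1, to its form CAGCTG, which CANNTG also covers, to the homeodomain core TAATTA, and to the Hox-Pbx form TGATNNAT.
Isl1 (chr13:116309690-116309938, minus strand): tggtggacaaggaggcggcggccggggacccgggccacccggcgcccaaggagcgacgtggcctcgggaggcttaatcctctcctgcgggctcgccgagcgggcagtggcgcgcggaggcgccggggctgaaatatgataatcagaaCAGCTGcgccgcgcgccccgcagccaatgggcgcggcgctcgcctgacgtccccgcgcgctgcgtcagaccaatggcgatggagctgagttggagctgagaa
Meox2 (chr12:37108290-37108539, plus strand): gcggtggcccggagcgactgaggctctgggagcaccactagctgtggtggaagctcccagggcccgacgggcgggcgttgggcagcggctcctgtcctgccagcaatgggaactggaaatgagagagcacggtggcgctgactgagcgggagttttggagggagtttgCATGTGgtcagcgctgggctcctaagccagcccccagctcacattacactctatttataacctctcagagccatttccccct
Myf5 (chr10:107486135-107486384, minus strand): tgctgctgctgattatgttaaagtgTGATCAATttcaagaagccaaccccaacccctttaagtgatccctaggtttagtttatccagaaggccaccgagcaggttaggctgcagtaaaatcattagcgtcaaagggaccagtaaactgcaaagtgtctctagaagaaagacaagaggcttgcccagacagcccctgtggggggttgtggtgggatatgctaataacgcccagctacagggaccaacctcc
The Isl1 window held 1 match to CAGCTG, the Meox2 window 1 match to CANNTG and the Myf5 window 1 match to TGATNNAT, while the windows of Tcf21 and Lhx2 held no match to any of the 4 motifs. Among 32817 promoter windows of 250 bases, CANNTG occurred in 66.2%, CAGCTG in 13%, TAATTA in 4.8% and TGATNNAT in 7.7%. These are matches of letters only.

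Some facts of the whole series bear on the values below, which are in CPM, a read count scaled to the size of its library. Reads per library ran from 8912251 to 20619153, so that 3 reads, the floor at or below which no fold is given, were 0.140 to 0.328 CPM. The targeted gene went against its label: Hoxa2 stood at 16.8 to 147 CPM in PA2 with the label Hoxa2-/- and at 20.2 to 63.3 CPM in wildtype PA2, so the groups are called by their label throughout. Which bases of Hoxa2 the allele lacks is not given in the sources used here. The libraries also fell into 2 sets by the level of Ski, with 26.3 to 108 CPM in wildtype outside E10.0, 9.52 to 15.5 CPM in wildtype at E10.0 and 9.28 to 22.8 CPM with the label at any stage, and Irf2bp2 divided them likewise. Label and division thus cannot be told apart except at E10.0, where the libraries of both labels had the low level. Of markers of other tissues that use these genes, motor neuron genes (Mnx1, Lhx3, Lhx4, Olig2 and Sox1) were 0 of 5 in the table used here, and the optic genes Six3 and Six6 together reached at most 2.77 CPM. A sum of 5 somite and sclerotome genes (Tbx18, Uncx, Nkx3-2, Pax1 and Tcf15, of 7 listed) ran from 22.8 to 90.5 CPM in PA2 and from 7.98 to 23.7 CPM in PA1. Whether the RNA in this sum came from somite tissue or from the arches themselves was not tested.

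Differences were tested with limma on log2(CPM + 1) over the 18428 genes kept by the filter, with Benjamini-Hochberg adjusted p-values. A gene is called higher or lower, or said to rise or fall, only where the adjusted p was below 0.05. Log2 differences on this scale, given with their standard errors, understate the change of genes near or below 1 CPM.

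Per kilobase of annotated exon, the median level over the 68 libraries was highest for Isl1, at 10.4 CPM per kb, followed by Tcf21 at 5.90, Msc at 2.88, Meox2 at 2.08, Lhx2 at 1.99, Meox1 at 0.683, Myf5 at 0.629 and Myod1 at 0.0725 CPM per kb. Myod1 was close to the detection limit, with 41 of 68 libraries at or below 3 reads. Meox1 was at or below 3 reads in 5 libraries and Myf5 in 2, and the other 5 genes were above it in every library.

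**Figure D1:**
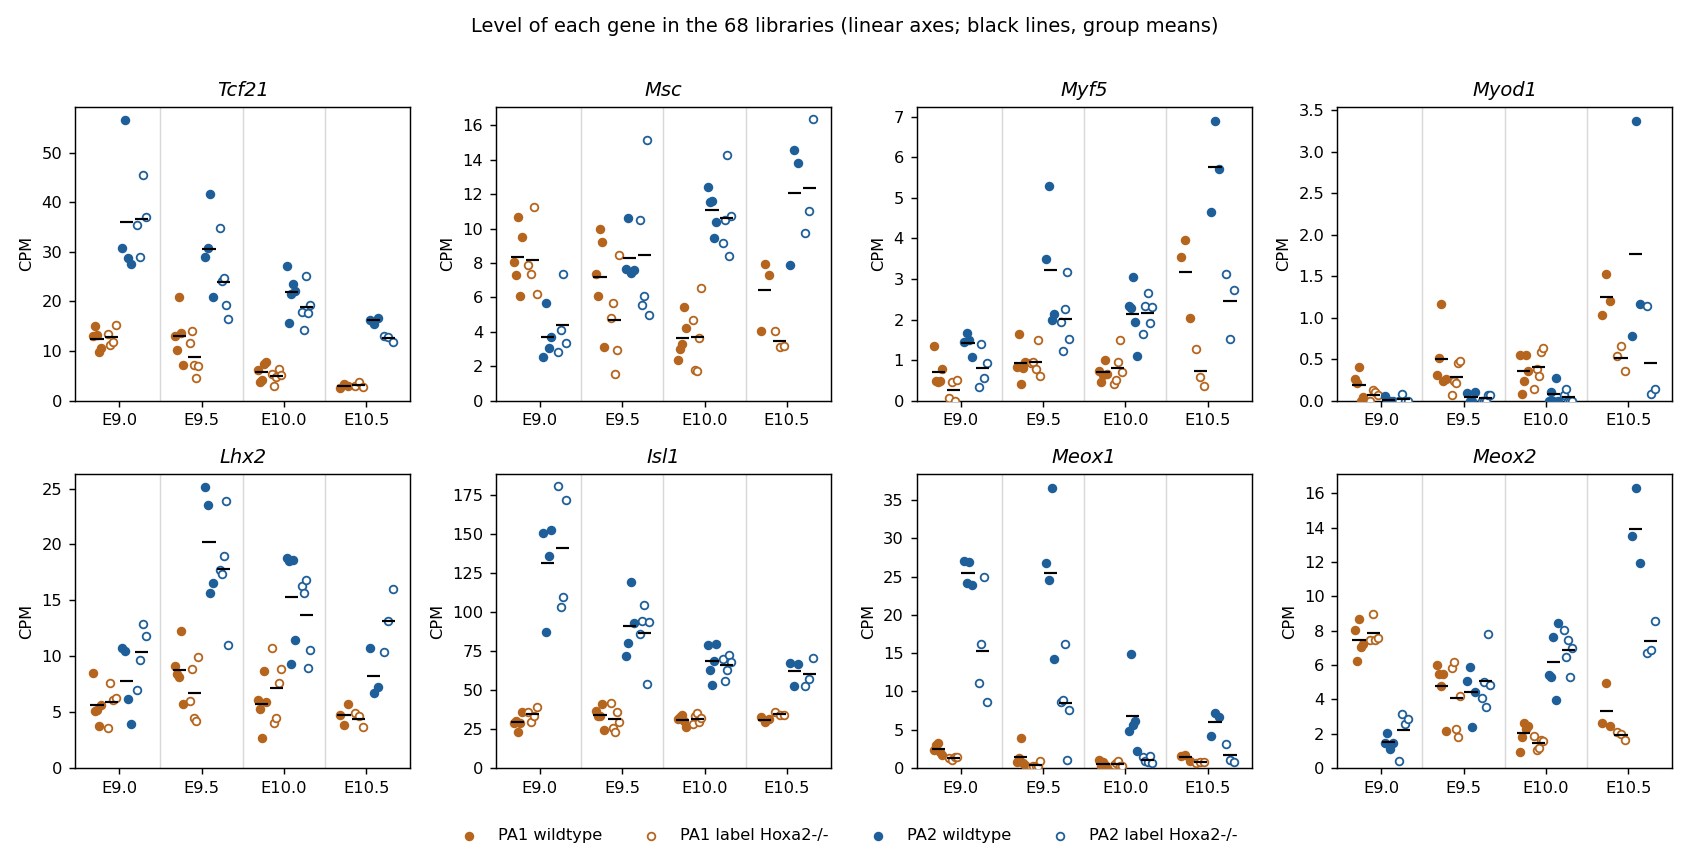
Each panel plots 1 gene, with CPM on a linear axis starting at 0 against stage. Every point is a library, brown for PA1 and blue for PA2, filled for wildtype and open for the label Hoxa2-/-, and black lines are group means. Isl1 lies higher in PA2 throughout, while Msc and Meox2 lie higher in PA1 at E9.0 and higher in PA2 at E10.0.

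The first comparison was between the arches of wildtype embryos. Isl1, Tcf21 and Meox1 were higher in PA2 than in PA1 at all 4 stages, and Myf5 and Lhx2 were higher in PA2 at E9.5 and E10.0. Msc and Meox2 changed sides: both were lower in PA2 at E9.0 and higher in PA2 at E10.0. Of the 8 genes, 5 passed at the first stage, E9.0, 3 of them higher in PA2 and 2 lower, and 18.7% of all genes tested passed there. At E9.5, 6 passed (5 higher and 1 lower) against 26.3% of all genes. All 7 that passed at E10.0 were higher in PA2, against 5.94% of all genes, as were all 4 at E10.5, against 1.52%. The median log2 difference of the 8 genes was 0.44, 1.11, 1.27 and 0.89 in the order of stage, beside -0.01, 0.01, -0.02 and -0.01 over all genes tested.

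Isl1, the LIM homeodomain factor of the second heart field, read 151, 86.9, 136 and 153 CPM in the 4 wildtype PA2 libraries of E9.0 and 28.7, 30.1, 23.4, 28.7 and 35.6 CPM in the 5 of PA1. Every PA2 library was well above every PA1 library. The log2 difference was 2.11 ± 0.17 (limma adjusted p = 5.0e-15), or 4.49-fold between the mean CPM values. Over the next 3 stages it was 1.40 ± 0.17, 1.12 ± 0.16 and 0.97 ± 0.20 (limma adjusted p = 5.7e-09, 4.3e-07 and 0.0017). The arches did not overlap at any of these stages.

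Heart muscle RNA was present in PA2 at the early stages. The sum of Myh6, Myh7, Myl7, Tnnt2 and Myl2 (5 of 6 markers; Nppa was not in the table) was 660.3, 20.2, 624 and 627 CPM in the wildtype PA2 libraries of E9.0, in the same order as above, against 9.02 to 22.6 CPM in PA1. The library with the least heart muscle RNA had the lowest Isl1 of its group, which was above every PA1 library. Over the 68 libraries, the deviations of Isl1 and of this sum from their group means had a Pearson r of 0.67. At E10.5 the sum was 0.998 to 2.07 CPM in wildtype PA2 and 1.04 to 1.48 CPM in wildtype PA1. Isl1 at that stage was 2.01-fold higher in PA2 by mean CPM. The part of heart tissue in the arch difference of Isl1 was not tested.

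Tcf21, the bHLH factor of facial muscle and epicardial progenitors, read 30.8, 56.5, 28.9 and 27.5 CPM in wildtype PA2 at E9.0 and 13.1, 15, 13.3, 9.73 and 10.7 CPM in wildtype PA1. The lowest PA2 library was above the highest PA1 library. On the log2 scale the arches differed by 1.42 ± 0.23, 1.21 ± 0.23, 1.77 ± 0.22 and 2.13 ± 0.28 in the order of stage (limma adjusted p = 6.3e-06, 0.00011, 1.4e-08 and 1.7e-07). At E10.5 Tcf21 stood at 16.2 ± 0.664 CPM (SD, n = 3) in PA2 and at 2.93 ± 0.409 CPM (SD, n = 3) in PA1, 5.51-fold apart.

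Meox1, the somitic homeobox factor, had the largest arch difference of the 8 genes in wildtype before E10.5. At E9.0 it read 27, 24.2, 26.9 and 24 CPM in PA2 and 2.4, 2.98, 3.23, 2.07 and 1.72 CPM in PA1. The PA2 libraries lay close together and far above PA1, 10.3-fold by mean CPM. Its log2 difference was 2.95 ± 0.35, then 3.57 ± 0.35 and 2.17 ± 0.33 (limma adjusted p = 3.5e-09, 1.1e-11 and 2.2e-06). At E10.5 it was 1.55 ± 0.43 (limma adjusted p = 0.040), a call that was lost without any 1 of the 3 PA1 libraries or of PA2 replicates 2 and 3 (limma adjusted p = 0.083 to 0.25) and with pseudocounts of 0.25 and 5 (0.061 and 0.10).

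Meox2, the second homeobox factor of this pair, read 8.05, 6.23, 8.66, 7.04 and 7.22 CPM in wildtype PA1 at E9.0 and 1.44, 2.03, 1.1 and 1.46 CPM in wildtype PA2. At E10.0 it read 0.909, 1.81, 2.64, 2.28 and 2.46 CPM in PA1 and 5.45, 5.33, 7.64, 3.96 and 8.45 CPM in PA2. The arches did not overlap at either stage, and their order was reversed. The log2 difference of PA2 against PA1 was -1.76 ± 0.25, -0.08 ± 0.25, 1.24 ± 0.23 and 1.82 ± 0.30 in the order of stage (limma adjusted p = 2.3e-07, 0.84, 0.00011 and 2.5e-05).

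Msc, a bHLH factor known as a repressor of the muscle determination factors, was likewise lower in PA2 at E9.0 and higher at E10.0. It read 8.05, 7.32, 10.7, 6.07 and 9.52 CPM in wildtype PA1 at E9.0 and 2.52, 5.67, 3.03 and 3.68 CPM in wildtype PA2. At E10.0 the 5 PA1 libraries lay between 2.36 and 5.47 CPM and the 5 PA2 libraries between 9.44 and 12.4 CPM. Again the arches did not overlap at either stage and their order was reversed. The log2 difference was -1.0 ± 0.29, 0.26 ± 0.29, 1.41 ± 0.28 and 0.82 ± 0.36 (limma adjusted p = 0.011, 0.57, 0.00025 and 0.51).

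Myf5, the earliest muscle determination factor in many muscles, read 3.5, 5.29, 1.98 and 2.13 CPM in wildtype PA2 at E9.5 and 0.832, 1.65, 0.41, 0.802 and 0.953 CPM in PA1. All PA2 libraries were above all PA1 libraries. The log2 difference was 1.09 ± 0.21, and at E10.0 it was 0.86 ± 0.19 (limma adjusted p = 9.2e-05 and 0.0019). The value of 0.52 ± 0.21 at E9.0 did not pass (limma adjusted p = 0.072, and 0.033 with the embryo as a block), and neither did 0.71 ± 0.25 at E10.5 (limma adjusted p = 0.23).

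Lhx2, the other LIM homeodomain factor, read 25.2, 23.5, 15.7 and 16.5 CPM in wildtype PA2 at E9.5 and 9.1, 8.38, 8.13, 12.3 and 5.77 CPM in PA1, without overlap. The log2 difference was 1.13 ± 0.27, and at E10.0 it was 1.29 ± 0.25 (limma adjusted p = 0.0014 and 0.00025). The values of 0.36 ± 0.27 at the first stage and 0.67 ± 0.33 at the last did not pass (limma adjusted p = 0.39 and 0.67). Myod1, the determination factor that often follows Myf5, was lower in PA2 at E9.5: all 4 PA2 libraries were at or below 3 reads, and PA1 read 0.312, 0.513, 1.16, 0.24 and 0.265 CPM. It differed by -0.48 ± 0.16 on the log2 scale (limma adjusted p = 0.020). The call was lost without PA1 replicate 3, the library with 1.16 CPM (limma adjusted p = 0.12), and without PA2 replicate 3 (limma adjusted p = 0.062). It was also lost with a pseudocount of 5 and in a fit of the compared groups alone (limma adjusted p = 0.073 and 0.056).

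**Figure D2:**
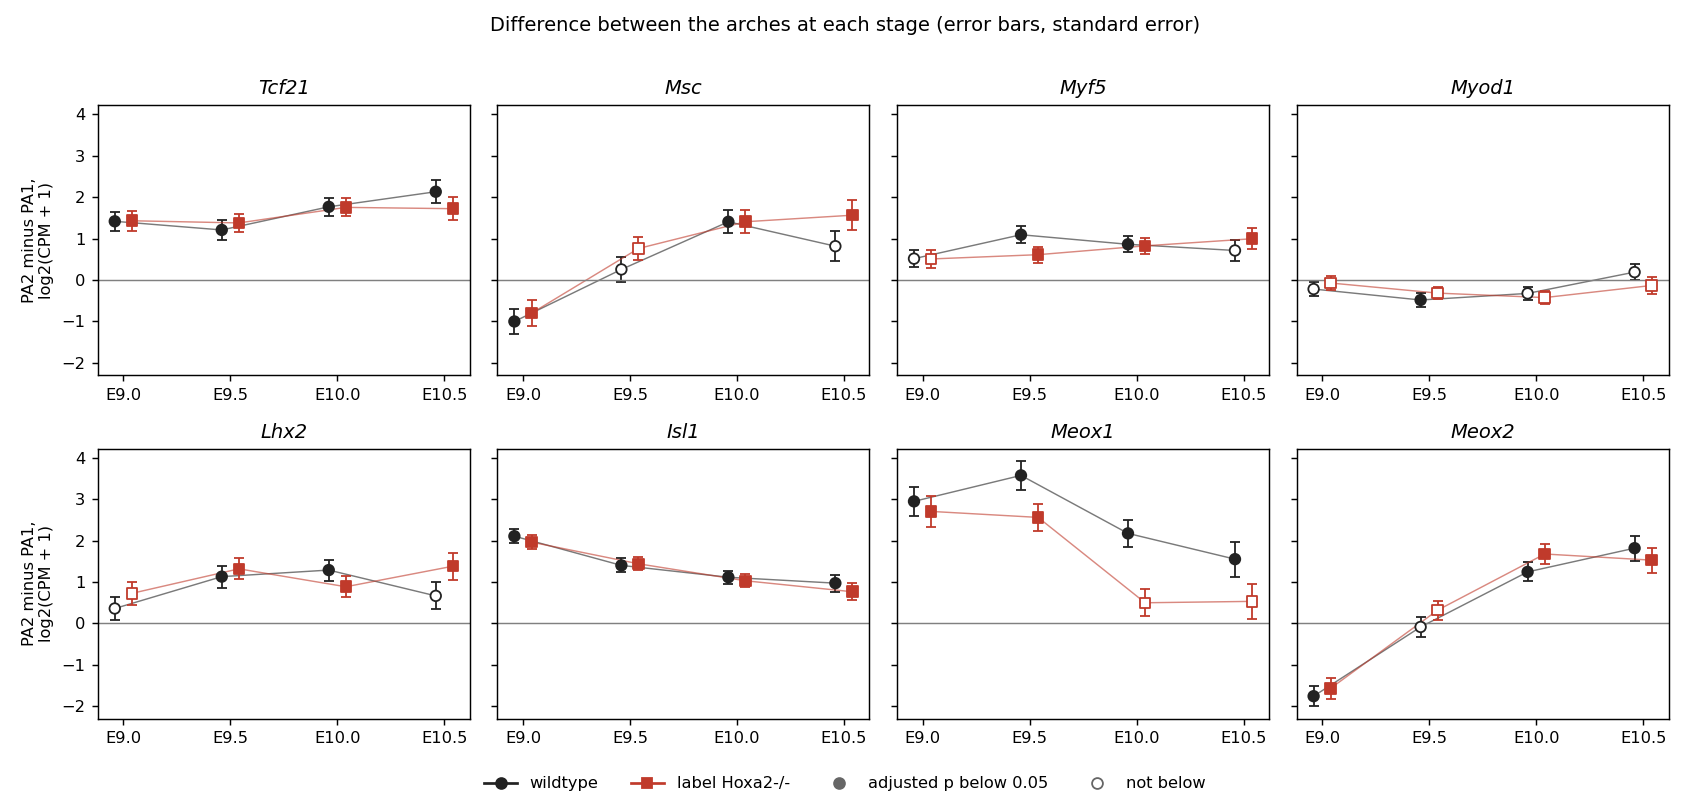
Each panel plots, for 1 gene, the log2(CPM + 1) difference of PA2 minus PA1 against stage, in black circles for wildtype and red squares for the label Hoxa2-/-. Error bars are standard errors, and filled symbols have a limma adjusted p below 0.05. In wildtype Meox2 goes from -1.76 at E9.0 to 1.82 at E10.5, and Isl1 goes from 2.11 to 0.97.

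With the label Hoxa2-/-, Isl1 and Tcf21 were again higher in PA2 at all 4 stages, and Msc and Meox2 again changed sides. Of the 8 genes, 5 passed at the first stage, 3 of them higher in PA2 and 2 lower, where 24.6% of all genes did. In the test without a block, all genes that passed later were higher in PA2: 5 of the 8 (9.58% of all genes called), then 6 (4.23%) and 6 (1.37%) in stage order. With the embryo as a block, Myod1 was also lower in PA2 at E10.0 (limma adjusted p = 0.035, edgeR adjusted p without the block 0.026). It was lower in 5 of 5 embryos of that stage, but on few reads. All 5 PA2 libraries were at or below 3 reads, 3 of them at 0, with 3 reads in all. The 5 PA1 libraries held 32 reads in all, a mean of 0.408 CPM. The block also called Myf5 and Lhx2 higher in PA2 at E9.0 and Msc higher at E9.5 (limma adjusted p = 0.032, 0.022 and 0.029). Of all genes tested, the block called 5874, 2870 and 1550 from E9.0 to E10.0, against 4527, 1766 and 779 without it. Isl1 differed by 1.96 ± 0.18, 1.44 ± 0.16, 1.03 ± 0.16 and 0.77 ± 0.20 on the log2 scale in the order of stage, and Tcf21 by 1.43 ± 0.24, 1.38 ± 0.22, 1.75 ± 0.22 and 1.72 ± 0.28. Meox2 went from -1.56 ± 0.26 at E9.0 to 1.68 ± 0.23 at E10.0 (limma adjusted p = 7.8e-06 and 3.1e-07), and Msc from -0.80 ± 0.31 to 1.41 ± 0.28 (limma adjusted p = 0.048 and 0.00039).

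Several of these calls were lost without single libraries or in other fits. That of Msc at E9.0 was lost without any 1 of 6 of the 8 libraries (limma adjusted p = 0.066 to 0.16) and in 6 other alternatives, edgeR among them (adjusted p = 0.081). At E10.5, Msc was lost without PA2 replicate 3 (limma adjusted p = 0.088), and Lhx2 without replicate 3 of PA1 or of PA2 (0.085 and 0.095). Isl1 at E10.5 was lost without any 1 of 5 of the 6 libraries (0.078 to 0.22), all but PA2 replicate 1, and Myf5 without any 1 of 4, PA1 replicates 2 and 3 and PA2 replicates 1 and 3 (0.10 to 0.22). That call of Myf5 was also lost with edgeR (adjusted p = 0.071) and in a fit of the compared groups alone (limma adjusted p = 0.094). The calls of Myf5 at E9.5 (limma adjusted p = 0.033) and Lhx2 at E10.0 (0.028) were lost without any 1 of 6 and 5 of the 10 libraries (0.054 to 0.11 and 0.060 to 0.14), and the former also with a pseudocount of 0.25 and in a fit of the compared groups alone (0.052 and 0.075).

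Meox1 differed between arches with the label by 2.70 ± 0.37 and 2.56 ± 0.33 at the first 2 stages (limma adjusted p = 1.3e-07 and 4.2e-08), but the later values, 0.50 ± 0.33 and 0.53 ± 0.43, did not pass (limma adjusted p = 0.47 and 0.73). At E10.0 the 5 PA2 libraries with the label read 1.5, 0.962, 0.831, 1.54 and 0.678 CPM and the 5 PA1 libraries read 0.343, 0.628, 0.96, 0.262 and 0.254 CPM. These groups overlapped, whereas wildtype PA2 at that stage lay between 2.19 and 14.9 CPM.

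Within single embryos, Tcf21, Myf5 and Isl1 had more CPM in PA2 than in PA1 in 33 of 33 embryos, and Lhx2 and Meox1 in 32. Msc and Meox2 were higher in PA2 in none of the 4 wildtype and 4 labelled embryos of E9.0, and in all 5 and 5 embryos of E10.0 and all 3 and 3 of E10.5. At E9.5 Msc was higher in PA2 in 3 of 4 wildtype and 3 of 5 labelled embryos, and Meox2 in 2 of 4 and 3 of 5. Myod1 was higher in PA2 in 3 embryos and lower in 28, over all stages and both labels. Before E10.5 its PA2 libraries were all at or below 3 reads, except in wildtype at E10.0, where 4 of 5 were. At E10.5 Myod1 was higher in PA2 in 1 and lower in 2 of the 3 embryos of each label.

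The next comparison was between the label Hoxa2-/- and wildtype within an arch. Meox1 was lower with the label in PA2 from E9.5 on, Myf5 was lower in both arches at E10.5, and Myod1 was lower in PA2 at E10.5. None of the 8 genes was higher with the label at any stage in either arch by this test. In PA2 the number of the 8 genes called was 0 (14% of all genes), 1 (4.48%), 1 (0.0814%) and 3 (10.3%) in the order of stage. In PA1 it was 0 (2.08% of all genes), 0 (23.6%), 0 (0%) and 1 (3.05%) in the order of stage. Of the 32 differences in each arch, limma gave 9 in PA2 and 6 in PA1 an unadjusted p below 0.05. In the order of stage, 5090, 3392, 1420 and 4411 of all 18428 genes had one in PA2, and 2624, 6625, 424 and 2793 in PA1. EdgeR called 5 and 2 of the 32, the second in PA1 being Meox1 at E9.5 (adjusted p = 0.022). Of all genes, it called 2502, 864, 11 and 1801 in PA2 and 363, 4541, 0 and 603 in PA1.

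Meox1 at E10.0 was the call at the stage where label and library division do not coincide. Wildtype PA2 read 4.88, 14.9, 5.68, 6.18 and 2.19 CPM and PA2 with the label read 1.5, 0.962, 0.831, 1.54 and 0.678 CPM. The lowest wildtype library was above the highest library with the label. The log2 difference was -1.71 ± 0.33 (limma adjusted p = 0.0066). Without wildtype replicate 2, the library with 14.9 CPM, it was -1.40 (limma adjusted p = 0.070), and in a fit of the 2 groups alone the limma adjusted p was 0.12. That library also had the highest sum of the 6 cranial ganglion neuron markers: in replicate order the wildtype libraries held 12.2, 30.6, 11.8, 11.4 and 11.5 CPM of them, and those with the label 7.8 to 13.3 CPM. Over the 68 libraries the deviations of Meox1 and of this sum from their group means had a Pearson r of 0.56, and the part of these cells in the result was not tested.

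At E9.5 Meox1 in PA2 read 26.8, 24.6, 36.6 and 14.2 CPM in wildtype and 8.69, 8.91, 16.3, 1.01 and 7.64 CPM with the label, where 1 library with the label reached the wildtype range. At E10.5 it read 4.24, 7.22 and 6.65 CPM in wildtype and 3.13, 1.04 and 0.841 CPM with the label, without overlap. The log2 differences were -1.70 ± 0.35 and -1.47 ± 0.43 (limma adjusted p = 0.0017 and 0.017), and that of E9.0, -0.81 ± 0.37, did not pass (limma adjusted p = 0.14). The call at E9.5 was lost in a fit of the 2 groups alone (limma adjusted p = 0.096), and that at E10.5 without replicate 2 or 3 of either label (limma adjusted p = 0.060 to 0.10). The neuron marker sum in PA2 at E9.5 was 12.1 to 24.7 CPM in wildtype and 8.48 to 36.5 CPM with the label, with the higher median in the latter. At E10.5 it was 18.1 to 22.9 CPM in wildtype and 8.06 to 12.5 CPM with the label.

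Whether the label differed in its association between the arches was tested as the genotype difference of PA2 minus that of PA1. In the order of stage, 0, 0, 0 and 0 of the 8 genes passed, where 0%, 0.0109%, 0.0163% and 0.038% of all genes did, and edgeR also called 0. Of all 18428 genes, 1083, 815, 282 and 602 had an unadjusted limma p below 0.05 in the order of stage. Of the 32 values of the 8 genes, 2 did, and both were of Meox1: -1.01 ± 0.48 at E9.5 and -1.67 ± 0.47 at E10.0 (limma adjusted p = 0.93 and 1.0). With edgeR the first was 0.33, of opposite sign.

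Myf5 in PA1 at E10.5 read 3.54, 3.95 and 2.03 CPM in wildtype and 1.26, 0.588 and 0.363 CPM with the label. In PA2 it read 4.66, 6.9 and 5.71 CPM in wildtype and 3.13, 1.52 and 2.73 CPM with the label. The labels did not overlap in either arch. The log2 differences were -1.27 ± 0.25 in PA1 and -0.98 ± 0.25 in PA2 (limma adjusted p = 0.0012 and 0.0065). The call in PA2 was lost without wildtype replicate 2 (limma adjusted p = 0.051) and without replicate 2 of the label (limma adjusted p = 0.083). At E10.0 the Myf5 differences were 0.07 ± 0.19 in PA1 and 0.03 ± 0.19 in PA2 (limma adjusted p = 1.0 and 0.99).

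Myod1 in PA2 at E10.5 read 0.776, 3.37 and 1.16 CPM in wildtype and 1.14, 0.080 and 0.14 CPM with the label. The groups overlapped, and 2 libraries with the label were at or below 3 reads. The log2 difference of -0.89 ± 0.19 passed (limma adjusted p = 0.0013), but without wildtype replicate 2, the library with 3.37 CPM, it was -0.50 (limma adjusted p = 0.095), and the call was lost in a fit of the 2 groups alone (0.14). In PA1 Myod1 read 1.03, 1.53 and 1.2 CPM in wildtype and 0.542, 0.653 and 0.363 CPM with the label, without overlap, and -0.57 ± 0.19 did not pass (limma adjusted p = 0.098). For Tcf21, Msc, Lhx2, Isl1 and Meox2 no difference by label passed in either arch in the main test. Meox2 in PA2 at E10.5 came nearest among these, at 13.9 ± 2.23 CPM (SD, n = 3) in wildtype and 7.38 ± 1.02 CPM (SD, n = 3) with the label. Its log2 difference was -0.83 ± 0.30 (limma adjusted p = 0.064, 0.011 in a fit of the 2 groups alone and 0.0055 with a pseudocount of 5). In PA1 at E9.5, Tcf21 was lower with the label without wildtype replicate 5 or replicate 1 or 2 of the label (limma adjusted p = 0.017 to 0.041). Msc was lower there without replicate 5 of either label (limma adjusted p = 0.026 and 0.037).

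**Figure D3:**
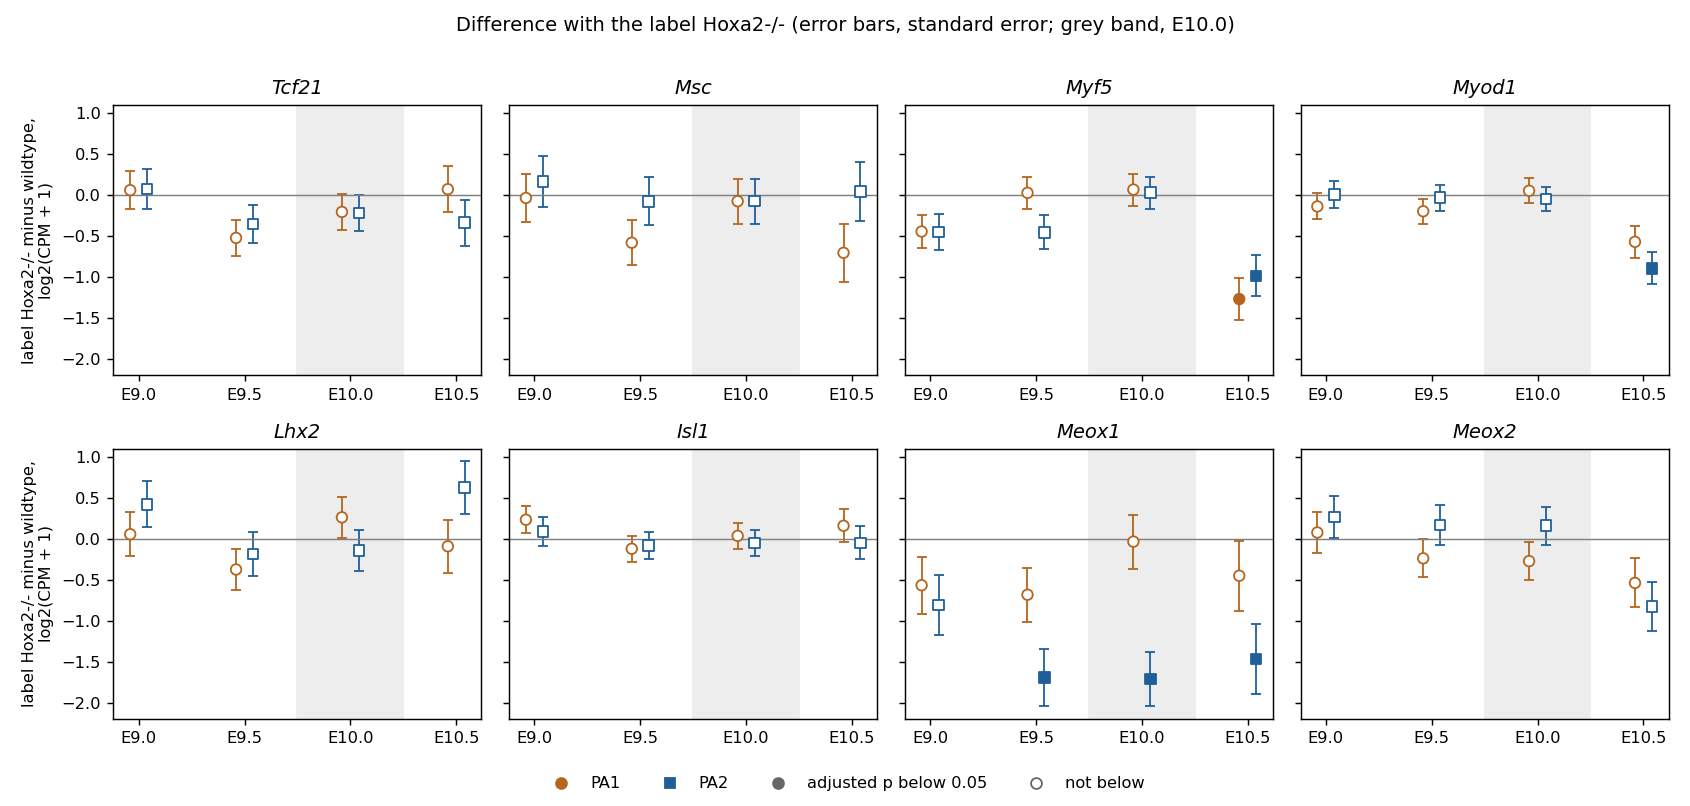
Each panel plots, for 1 gene, the log2(CPM + 1) difference of the label Hoxa2-/- minus wildtype against stage, in brown circles for PA1 and blue squares for PA2. Error bars are standard errors, filled symbols have a limma adjusted p below 0.05, and the grey band marks E10.0, where label and library division do not coincide. All filled symbols lie below 0, and Meox1 in PA2 stands at -1.71 at E10.0.

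Change with stage was measured from E9.0 to E10.5, which in wildtype lie on 1 side of the library division. Of the 8 genes, 7 changed in wildtype PA2 (4 rose and 3 fell, with 36.9% of all genes called), and 4 in wildtype PA1 (2 rose and 2 fell, with 42.5% called). With the label, 6 changed in PA2 (30.9% of all genes) and 4 in PA1 (31.2%).

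Tcf21 fell in both arches, by 1.76 ± 0.25 on the log2 scale in wildtype PA1, from 12.4 ± 2.13 CPM (SD, n = 5) to 2.93 ± 0.409 CPM (SD, n = 3), and by 1.04 ± 0.26 in wildtype PA2 (limma adjusted p = 7.9e-08 and 0.0013). Isl1 fell by 1.04 ± 0.19 in wildtype PA2, from 131 ± 30.7 CPM (SD, n = 4) to 62.2 ± 8.62 CPM (SD, n = 3) (limma adjusted p = 1.3e-05). In wildtype PA1 it stood at 29.3 ± 4.36 CPM (SD, n = 5) and 31 ± 1.69 CPM (SD, n = 3), a difference of 0.09 ± 0.18 (limma adjusted p = 0.72). The Isl1 change in PA2 minus that in PA1 was -1.13 ± 0.26 in wildtype and -1.20 ± 0.27 with the label (limma adjusted p = 0.0054 and 0.0034). The heart muscle sum went from 20.2 to 660.3 CPM to 0.998 to 2.07 CPM over the same stages in wildtype PA2, and its part in the fall of Isl1 was not tested.

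The muscle determination factors rose in wildtype. Myf5 rose by 1.28 ± 0.22 in PA1 and by 1.47 ± 0.24 in PA2 (limma adjusted p = 5.1e-06 and 1.0e-06), 4.44-fold and 4.06-fold by mean CPM. Myod1 rose by 0.93 ± 0.17 in PA1, from 0.187 to 1.25 CPM on average, and by 1.34 ± 0.18 in PA2, where all 4 libraries of E9.0 were at or below 3 reads (limma adjusted p = 1.4e-05 and 2.7e-08). With the label, Myf5 rose by 0.94 ± 0.24 in PA2 (limma adjusted p = 0.0014), while its value in PA1, 0.45 ± 0.24, did not pass (limma adjusted p = 0.14). Myod1 rose by 0.50 ± 0.18 in PA1 with the label (limma adjusted p = 0.030), a call that was lost without replicate 1 of E9.0 or replicate 1 or 2 of E10.5 (limma adjusted p = 0.070 to 0.11), and its value in PA2, 0.44 ± 0.18, did not pass (limma adjusted p = 0.058) but did with edgeR (adjusted p = 0.0095).

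Meox1 fell in PA2 by 1.94 ± 0.40 in wildtype and by 2.60 ± 0.40 with the label (limma adjusted p = 8.9e-05 and 6.3e-07). Meox2 moved in opposite directions, falling by 1.0 ± 0.27 in wildtype PA1 and rising by 2.57 ± 0.28 in wildtype PA2 (limma adjusted p = 0.0018 and 6.4e-11), where its mean CPM increased 9.22-fold. The difference of these changes was 3.57 ± 0.39 in wildtype and 3.09 ± 0.39 with the label (limma adjusted p = 1.5e-09 and 3.9e-07). Msc rose by 1.47 ± 0.33 in wildtype PA2 and fell by 1.02 ± 0.33 in PA1 with the label (limma adjusted p = 0.00036 and 0.015), and its difference of changes was 1.82 ± 0.46 in wildtype and 2.37 ± 0.47 with the label (limma adjusted p = 0.013 and 0.00080). The fall in PA1 with the label was lost without replicate 3 of E9.0 or replicate 2 of E10.5 (limma adjusted p = 0.060 and 0.0501). The wildtype difference of changes was lost without PA1 replicate 1 of E10.5 (limma adjusted p = 0.076). Such a difference of changes passed for 3 of the 8 genes in wildtype (Msc, Isl1 and Meox2), where 3.35% of all genes passed. With the label it passed for 4 (these and Meox1, -2.17 ± 0.56, limma adjusted p = 0.012), where 7.33% did.

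Steps between neighbouring stages were tested with the label Hoxa2-/-, whose libraries all lie on 1 side of the library division. In PA1, Meox2 fell by 0.91 ± 0.25 in the step to E9.5 (1 of the 8 genes called, with 2.85% of all genes) and by 0.95 ± 0.23 in the step to E10.0 (1, with 4.4%). In the step to E10.5, 0 were called (with 0.298% of all genes). In PA2, 4 changed in the step to E9.5 (with 16.9% of all genes): Myf5 rose by 0.74 ± 0.21, Meox2 rose by 0.98 ± 0.25, Isl1 fell by 0.69 ± 0.17 and Meox1 fell by 0.96 ± 0.35. In the step to E10.0, Meox1 fell by 1.91 ± 0.33, from 8.5 ± 5.41 CPM (SD, n = 5) to 1.1 ± 0.395 CPM (SD, n = 5) (1 of the 8, with 4.57%), and in the step to E10.5, 0 were called (with 0.239%). Fits of the 2 stages alone called 0 of these 48 differences with limma, with 18 at an unadjusted p below 0.05. EdgeR called 7 as well, but not the same ones: it lost the first steps of Meox2 in PA1 and Meox1 in PA2 (adjusted p = 0.051 and 0.17) and gained Myf5 and Tcf21 in PA1, in the steps to E9.5 and E10.0 (0.048 and 0.032). Of all 18428 genes, edgeR called 600, 1044 and 41 in the steps of PA1 and 2590, 864 and 13 in those of PA2. Without a single library, the first Meox1 step in PA2 was as small as -0.47 (replicate 4 of E9.5, limma adjusted p = 0.34; 0.052 with all libraries and the embryo as a block) and the Meox2 step in PA2 as small as 0.62 (replicate 1 of E9.0, limma adjusted p = 0.053). Both Meox2 steps in PA1 and the Myf5 step were lost without any 1 of 5, 2 and 2 libraries (limma adjusted p = 0.071 to 0.16, 0.057 to 0.059 and 0.055 to 0.063).

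In the order of the 16 groups by mean CPM, Isl1 ran from 29.3 CPM in wildtype PA1 at E9.0 to 141 CPM in PA2 with the label at E9.0, and the 8 PA2 groups were the 8 highest. Tcf21 ran from 2.93 CPM in wildtype PA1 at E10.5 to 36.7 CPM in PA2 with the label at E9.0. Msc ran from 3.45 to 12.4 CPM, both at E10.5 with the label, in PA1 and PA2. Myf5 ran from 0.261 CPM in PA1 with the label at E9.0 to 5.76 CPM in wildtype PA2 at E10.5, the group that also held the highest Meox2, 13.9 CPM, and the highest Myod1, 1.77 CPM. Meox2 was lowest, at 1.46 CPM, in PA1 with the label at E10.0. Lhx2 and Meox1 were highest in wildtype PA2 at E9.5, at 20.2 and 25.5 CPM, and lowest in PA1 with the label, at 4.4 CPM (E10.5) and 0.345 CPM (E9.5). For Tcf21, Msc, Myf5 and Lhx2, all 15 pairs of neighbours in this order overlapped, and for Isl1, Meox1, Meox2 and Myod1, 1 of the 15 pairs did not.

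Other regulators of cranial mesoderm and the second heart field were read from a list of 18 genes, of which 17 were tested and Mesp1 was not. In wildtype, the number higher in PA2 was 6, 5, 3 and 0 in the order of stage. Among all genes tested, 10.2%, 12.7%, 4.51% and 0.868% were higher in PA2. The list's median log2 difference was 0.28, 0.36, 0.22 and -0.08, and the medians over all genes are those given with the 8 genes. Tbx1, the T-box factor upstream of branchial myogenesis, was higher in PA2 up to E10.0, with 61.4 ± 8.75 CPM (SD, n = 4) against 22.4 ± 7.16 CPM (SD, n = 5) at E9.5 (log2 difference 1.46 ± 0.25, limma adjusted p = 2.5e-05). Eya1, a transcriptional coactivator of placodes and muscle, was higher at the same stages, by 0.76 ± 0.10 at E9.5 (limma adjusted p = 1.6e-07), and so was Gata4, a heart and endoderm factor, by 1.98 ± 0.54 at E10.0 (limma adjusted p = 0.013). With the label, Tbx1 was higher in PA2 at all 4 stages, and Ebf2 and Eya1 were higher from E9.5 on.

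By label, this list held 1 call in PA2 (Eya1, 0.50 ± 0.13 higher at E10.5, limma adjusted p = 0.0059) and 1 in PA1 (Eya4, 0.97 ± 0.25 lower at E10.5, limma adjusted p = 0.021). At that stage 10.3% and 3.05% of all genes were called. No gene of it passed at E9.0 or E9.5, where 14% and 4.48% of all genes were called in PA2 and 2.08% and 23.6% in PA1. None passed at E10.0 either. From E9.0 to E10.5, 10 fell and 3 rose in wildtype PA2, where 36.9% of all genes were called, and 8 fell and 2 rose in wildtype PA1, where 42.5% were. Mef2c, a muscle and heart transcription factor, fell from 122 ± 32 to 16.7 ± 0.712 CPM in wildtype PA2 (SD, n = 4 and 3). The log2 difference was -2.76 ± 0.34 (limma adjusted p = 1.7e-09). The heart muscle sum in wildtype PA2 was 20.2 to 660.3 CPM at E9.0 and 0.998 to 2.07 CPM at E10.5. The part of heart tissue in the falls of this list was not tested. As for Msc and Meox2, the change of Ebf2 in PA2 minus that in PA1 was positive, 1.55 ± 0.35 in wildtype and 2.02 ± 0.36 with the label (limma adjusted p = 0.0042 and 0.00021), and so was that of Ebf1, 1.47 ± 0.30 and 1.55 ± 0.31 (limma adjusted p = 0.0014 and 0.00085). That of Tlx1 was negative, -1.99 ± 0.34 and -1.89 ± 0.35 (limma adjusted p = 8.1e-05 and 0.00032).

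Of 27 genes of skeletal muscle commitment and differentiation, 17 were tested, and Myog, Myf6, Pax7, Lbx1, Mymk and Myh3 were among the others. In wildtype, the number higher in PA2 was 6, 4, 1 and 1 in the order of stage, and the number lower was 2, 1, 2 and 1. Of all genes tested, 10.2%, 12.7%, 4.51% and 0.868% were higher, and 8.53%, 13.7%, 1.43% and 0.651% were lower. The list's median log2 difference was 0.01, 0.09, -0.01 and -0.06, beside the medians over all genes given above. Those higher at E9.0 were Des, Actc1, Acta1, Myl1, Ttn and the inhibitor gene Id2, and the first 5 encode structural proteins of muscle, most of which heart muscle also makes. Ttn stood at 51.5 ± 28.8 CPM (SD, n = 4) in PA2 and 3.18 ± 0.514 CPM (SD, n = 5) in PA1 at E9.0 (log2 difference 3.35 ± 0.61, limma adjusted p = 4.2e-05), in the libraries whose heart muscle sum was 20.2 to 660.3 CPM. At E10.5 it stood at 1.13 ± 0.358 and 2.08 ± 0.661 CPM (SD, n = 3 each, limma adjusted p = 1.0). Over the stages from E9.0 to E10.5, 5 genes of the list rose and 4 fell in wildtype PA1, where 42.5% of all genes were called. In wildtype PA2 4 rose and 7 fell, Actc1, Ttn, Des and Acta1 among the latter, where 36.9% of all genes were called. Cdh15, the M-cadherin of myoblasts, was among those that rose, by 1.60 ± 0.24 in wildtype PA1 and by 1.56 ± 0.25 in wildtype PA2 (limma adjusted p = 2.0e-07 and 1.3e-06). By label, the list held 1 lower gene in PA2 at E9.0 (Chrna1, -0.93 ± 0.26, limma adjusted p = 0.011) and 1 higher and 1 lower in PA1 at E9.5 (Tcf12 and Chrna1), where 14% and 23.6% of all genes were called. At E10.5 1 was higher (Id3) and 1 lower in PA1 (3.05% of all genes called), and 0 were higher and 3 lower in PA2 (10.3% of all genes). Pax3, a muscle progenitor factor of somites that also acts in neural crest, was lower in PA1 (-1.74 ± 0.35, limma adjusted p = 0.0013), and Tnnt1, Id2 and Tcf12 were lower in PA2 (-0.75 ± 0.26, -0.59 ± 0.14 and -0.38 ± 0.11, limma adjusted p = 0.048, 0.0029 and 0.014). At E10.0 no gene of this list passed by label in either arch.

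Of 10 partners and relatives of the LIM homeodomain factors, 9 were tested and Lhx9 was not. In wildtype, the number higher in PA2 was 2, 1, 0 and 0 in the order of stage, and the number lower was 1, 1, 2 and 3. The shares of all genes were 10.2%, 12.7%, 4.51% and 0.868% higher, and 8.53%, 13.7%, 1.43% and 0.651% lower. The list's median log2 difference was -0.02, -0.10, -0.15 and -0.19, beside the medians over all genes given above. Lhx8 and Lhx6, which mark the oral mesenchyme of the jaw arch, were lower in PA2, Lhx8 from E9.5 on and Lhx6 from E10.0 on, with Lhx8 at 6.54 ± 3.69 CPM against 64 ± 14.2 CPM at E10.0 (SD, n = 5 each; log2 difference -3.23 ± 0.33, limma adjusted p = 3.2e-11). Isl2, the close relative of Isl1, was higher in PA2 at E9.0 (1.39 ± 0.26, limma adjusted p = 6.7e-05) and lower at E10.5 (-1.15 ± 0.32, limma adjusted p = 0.041), whereas Isl1 was higher at both. By label in PA2 at E10.5, Ldb1, the shared cofactor of LIM domains, Lmo2 and Lhx6 were higher, 3 of 9 where 10.3% of all genes were called (0.46 ± 0.13, 0.63 ± 0.17 and 1.46 ± 0.34, limma adjusted p = 0.017, 0.011 and 0.0025). In PA1 Lmo4 at E9.5 and Ldb2 at E10.5 were lower, where 23.6% and 3.05% of all genes were called. No other gene of the list passed by label.

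How the 8 genes varied within groups is given as a description, over 68 libraries that share embryos and dissections. The deviations of Msc and Meox2 from their group means correlated most (Pearson r = 0.58), followed by Msc and Lhx2 (0.52), Tcf21 and Msc (0.45) and Tcf21 and Lhx2 (0.40). The lowest value was that of Isl1 and Myf5 (-0.31). Tbx1 deviated with Lhx2 (0.60), Tcf21 (0.53) and Msc (0.53). Lhx2 and Myf5 also deviated with the summed ectomesenchyme markers (0.51 and 0.42), and Msc and Myf5 against the summed epithelial markers (-0.46 and -0.43). The part of these other tissues in the values was not tested.

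**Figure D4:**
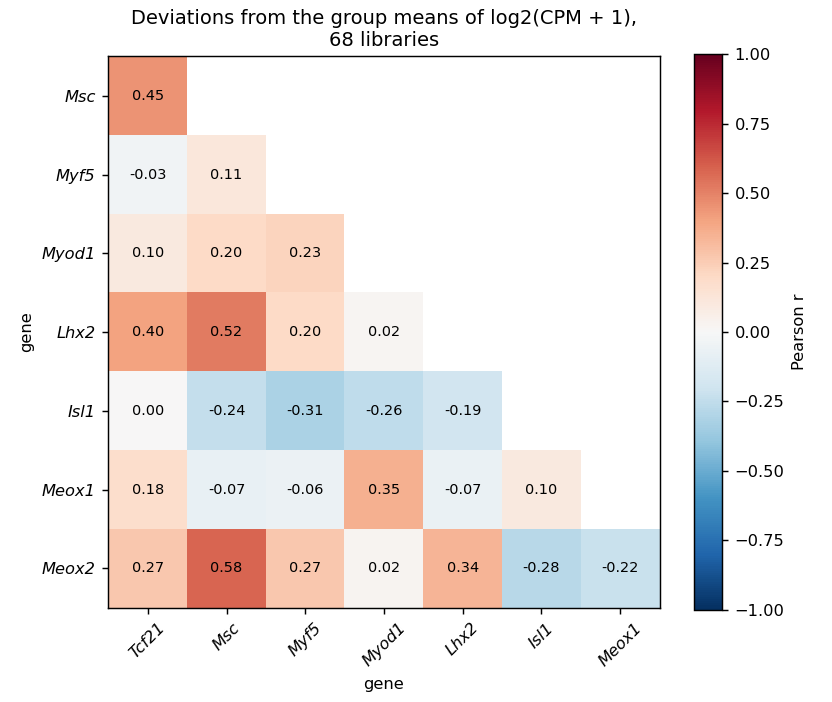
The matrix gives, for each pair of the 8 genes, the Pearson r of their deviations from the group means of log2(CPM + 1) over 68 libraries, on a colour scale from blue (negative) to red (positive). The highest value is that of Msc with Meox2, 0.58, and the lowest that of Isl1 with Myf5, -0.31.

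The genes most like each of the 8 over the 68 libraries, by Pearson r of log2(CPM + 1) with arch and stage differences included, were sought among 11350 named genes. Msc and Meox2 were each other's closest match: for Msc the 3 nearest were Meox2 (0.82), Heyl (0.74) and Rarres1 (0.66), and for Meox2 Msc (0.82), Gjb2 (0.74) and Foxd2os (0.70). Tcf21 was closest to Pax1 (0.92), Nkx2-6 (0.91) and Plet1 (0.91), and Isl1 to Cdh13 (0.94), Tmem100 (0.93) and Ckb (0.93). Meox1 was closest to Ctxn3 (0.85), Cyp26b1 (0.84) and Fgf15 (0.84), and Lhx2 to Htra3 (0.76), Hspa2 (0.76) and Hey1 (0.75). Myf5 was closest to Ntng1 (0.78), Runx1 (0.78) and Lrrn1 (0.76), and Myod1, mostly at the detection limit, to Kctd12 (0.75), Pcdh10 (0.74) and Gabrp (0.74).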

How the data were processed

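Polyadenylated RNA of hand-dissected arches was made into cDNA with SMART-seq v4 and into libraries with Nextera XT, per the labels' protocols; no molecular identifiers are named, so amplified copies count as reads. The submitters' processing notes name bcl2fastq 2.18, TopHat2 2.1.1, R 3.3.2 and mm10; the counting program, annotation and strand setting are not given in the sources used here. The authors deposited 1 table, recorded as a signal because its columns sum to 926298 to 1051959. Every deposited signal value was a whole multiple of the worth of 1 read (100% of values, within 0.01 reads), which gave back the reads. These values are called CPM, the unit the plan expected, so the planned tests were kept.

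Genes with at least 1 CPM in at least 3 libraries were kept (18428). Limma 3.58.1 (R 4.3.3) fitted 1 mean per group over all 68 libraries on log2(CPM + 1), with an intensity trend in the prior variance and two-sided p-values adjusted over all kept genes, and was tested on simulated data. EdgeR 4.0.16 was run on the recovered reads. The 8 genes, gene lists and tests were chosen with earlier results of these data known. From each list, up to 4 genes past the threshold at most stages could be named in a comparison, ties by mean absolute log2 difference; those given here are among them, except Cdh15 in wildtype PA2, Acta1 and Id2 between arches, and Ttn at E10.5, chosen after their values were seen. One gene of the mesoderm list, with the lower counts between arches it enters, is not reported here. Genes most alike had a symbol that is neither a Gm number nor ends in Rik and at least 5 CPM in some group.

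Per the series text, equal numbers in both arches at a given stage and label mark 1 embryo. Their deviations correlated with a median r of 0.35 over 33 pairs (30 above 0.1), against -0.12 over 116 pairs of different number. The embryo as a block (correlation 0.22) was an alternative. Others were pseudocounts of 0.25 and 5, leaving out the filter, a 5 CPM filter, scaling by the median of ratios, a fit of the compared groups alone and each library left out. Leaving out 6 libraries with yolk sac markers above 50 CPM or red cell markers above 10000 CPM was chosen after seeing the data.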

Additional observations from a re-analysis of the deposited data

Results flagged for a closer look

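In groups of 4 or 5 libraries, a library far from the others of its group was sought for each of the 8 genes. Of 96 groups 7 held one. Chance flags about 1 in 20 groups of normally spread values, a rate that does not hold for groups with most libraries at 0. Tcf21 was 56.5 CPM in wildtype PA2 replicate 2 of E9.0, where the others were 27.5 to 30.8 CPM; that library also had the highest red cell sum, 53786 CPM. Msc was 10.6 CPM in wildtype PA2 replicate 2 of E9.5 (others 7.42 to 7.66 CPM). Meox1 was 3.9 CPM in wildtype PA1 replicate 3 of E9.5 (others 0.371 to 1.25 CPM) and 0.883 CPM in PA1 replicate 5 with the label at E9.5 (others 0.132 to 0.261 CPM). Meox2 was 9.0 CPM in PA1 replicate 2 with the label at E9.0 (others 7.47 to 7.57 CPM). Myod1 was 0.0515 CPM in wildtype PA2 replicate 1 and 0.0821 CPM in PA2 replicate 2 with the label, both of E9.0, with all others of these groups at 0 and all values at or below 3 reads. In such a group a single value above 0 is flagged whatever its size.

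From the first to the last stage the change differed between the arches, by a test of the difference itself, for 7 values. On the log2 scale, PA2 minus PA1, these were 1.82 (wildtype) and 2.37 (label Hoxa2-/-) for Msc, -1.13 and -1.20 for Isl1, 3.57 and 3.09 for Meox2, and -2.17 with the label for Meox1. The Meox1 value was lost with edgeR (adjusted p = 0.12), and in wildtype, -1.39 ± 0.55, did not pass (limma adjusted p = 0.17, and 0.0037 in a fit of the compared groups alone).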

How the results depend on the processing

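Of 256 differences of the 8 genes, 85 passed. The share of all genes that passed ran from 0% to 42.5% over the 32 comparisons. Of the 85, 60 kept their direction and call in every alternative run, and 21 lost the call without 1 library. Differences with an unadjusted p above 0.05 were not followed. No called difference changed sign; the uncalled Meox1 difference of genotype differences at E9.5 was 0.33 with edgeR. Fits of the compared groups alone gave 3 calls by label in PA2, not 5, and 0 for consecutive stages, not 7. The 5 CPM filter, which removes Myod1, gave 11 for the latter. The calls by label in PA1 were 2, not 1, with a pseudocount of 0.25 and with edgeR. The cause of these shifts was not tested. Without the 6 libraries rich in yolk sac or red cell RNA, the Myf5 and Meox1 steps to E9.5 in PA2 with the label were lost (limma adjusted p = 0.062 and 0.30), that of Msc was gained (0.045), and no other call changed. Leaving out libraries 1 at a time gave 2 to 5 calls by label in PA2 (2 without wildtype replicate 2 of E10.5), 1 to 3 in PA1 (3 without wildtype replicate 5 of E9.5), 21 to 23 and 18 to 23 for PA2 against PA1 in wildtype and with the label (22 each), 11 for wildtype stages (11), 8 to 11 for stages with the label (10), 6 to 7 for stage changes between arches (7), 6 to 8 for consecutive stages, and 0 for genotype differences between arches (0).

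With the replicate block, the counts were 23 and 26 for PA2 against PA1 in wildtype and with the label, 8 for consecutive stages, and as in the main test otherwise. Between arches the block also called more of all 18428 genes. In wildtype at E9.0 it called 4522, against 3454 in the main test. With the label, from E9.0 to E10.0, it called 5874, 2870 and 1550, against 4527, 1766 and 779. In the steps of the label to E10.0 in PA1 and to E9.5 in PA2 it called 857 and 3132, against 811 and 3119. Among the 8 genes it gained 7 calls and lost 1, the first step of Meox1 in PA2 with the label (limma adjusted p = 0.052). Gained were Myf5 in both labels at E9.0 (0.033 and 0.032), Lhx2 at E9.0 (0.022), Msc at E9.5 (0.029) and Myod1 at E10.0 (0.035) with the label between arches, and the Tcf21 steps in PA1 to E10.0 and in PA2 to E9.5 (0.043 and 0.041). Depth limits Myod1, at or below 3 reads in 41 libraries.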
